A study of Mus musculus with 4 samples.

Results

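Narrow shared promoter regions are the compact accessible intervals at gene starts that appeared in the limb bud at both stages examined by ATAC-seq, an assay that maps open chromatin by the places where a transposase can insert adapters for sequencing. They were selected from the E9.5 list as rows that overlapped a row of the E10.5 list by 1 bp or more, lay on an autosome, had their centre within 2500 bp of a protein-coding transcription start and were under 3000 bp wide. The E9.5 list held 42613 regions. Overlap with the E10.5 list left 29883, of which 29208 were autosomal, 13739 were promoter regions and 12684 were under 3000 bp. The members were nearest to 11123 of the 21418 autosomal protein-coding genes. The other 1055 shared promoter regions were wider.

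The samples were wild-type NMRI embryos, with 2 biological replicates per stage, and a replicate was both forelimb buds from 1 embryo. The stage named E9.5 was collected at E9.75 by the protocol, and its buds kept a part of the adjoining trunk. The E10.5 samples were described as forelimb buds in the source and the protocol, whereas their tissue label also names hindlimb buds. The authors combined the replicates into 1 list per stage, so no value below has a replicate error, no difference between the stages could be tested, and stage and trunk tissue cannot be told apart. Read depth is unknown.

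A promoter is the stretch around the start of a gene where RNA polymerase and the general transcription factors assemble, and at active genes it is kept free of nucleosomes. Promoters of genes used by every cell usually lie in CpG islands, which are rich in CG dinucleotides and stay unmethylated. Promoters of patterning genes in embryos are also often CpG islands and can be held by Polycomb proteins when silent, so an open promoter does not by itself mark an active gene. The score of a region was 10 times the negative log10 of the best peak-caller p-value among the replicates, which grows with depth and with region width. Scores were therefore turned into percentile ranks among the members, from 0 for the lowest to 100 for the highest, separately for the E9.5 regions and for their best-scoring E10.5 partners. A rank shift is the E10.5 percentile minus the E9.5 percentile.

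The sequences before the start (150 bases, 5' to 3', from the NCBIM37 assembly, which has the chromosome lengths of mm9) are shown for 8 members on which the results below turn. The first 3 have the highest score reached in their gene class and the fourth belongs to a linker histone gene, the next 3 rose in rank between the lists and the last fell. The capitals mark exact matches, on either strand, to 15 of the 18 short motifs searched: AGCCAAT for the CCAAT-box factor NFY, GCGCATGCG for NRF1, GGGGCGGGG for SP and KLF factors, CACGTG for E-box factors and TATAAA for the TATA box are those found here. The Nup62 stretch also lies inside the annotated Atf5 gene body, those of Mrps36, Pax6 and Vps13d lie inside the body of their own gene before an internal start, and the other 4 overlap no annotated protein-coding gene. None of the 8 overlaps an annotated untranslated region.
Nup62, chr7:52071308-52071457 (plus strand): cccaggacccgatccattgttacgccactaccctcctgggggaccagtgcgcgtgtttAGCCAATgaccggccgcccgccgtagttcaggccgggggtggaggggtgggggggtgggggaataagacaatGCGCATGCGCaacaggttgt
Mrps36, chr13:101514087-101514236 (minus strand): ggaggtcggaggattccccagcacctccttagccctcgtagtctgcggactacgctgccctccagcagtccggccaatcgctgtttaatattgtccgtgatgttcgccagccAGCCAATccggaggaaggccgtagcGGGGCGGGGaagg
Insig1, chr5:28397802-28397951 (plus strand): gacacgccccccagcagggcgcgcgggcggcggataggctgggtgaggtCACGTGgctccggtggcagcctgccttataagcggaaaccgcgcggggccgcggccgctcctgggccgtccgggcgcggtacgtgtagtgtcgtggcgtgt
Hist1h1d, chr13:23646751-23646900 (plus strand): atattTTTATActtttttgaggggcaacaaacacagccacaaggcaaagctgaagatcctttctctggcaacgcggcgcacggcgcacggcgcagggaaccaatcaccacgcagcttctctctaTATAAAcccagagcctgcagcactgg
Hand2, chr8:59799630-59799779 (plus strand): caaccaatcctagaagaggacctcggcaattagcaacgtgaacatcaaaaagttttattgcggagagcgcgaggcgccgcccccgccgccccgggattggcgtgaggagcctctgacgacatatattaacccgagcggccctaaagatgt
Hoxd9, chr2:74535587-74535736 (plus strand): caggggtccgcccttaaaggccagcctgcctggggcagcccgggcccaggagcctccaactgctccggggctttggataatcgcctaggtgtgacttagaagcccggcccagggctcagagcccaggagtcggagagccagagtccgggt
Vps13d, chr4:144640938-144641087 (minus strand): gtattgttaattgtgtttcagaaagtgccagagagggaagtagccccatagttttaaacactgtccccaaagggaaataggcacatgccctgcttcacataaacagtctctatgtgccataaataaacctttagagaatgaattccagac
Pax6, chr2:105529462-105529611 (plus strand): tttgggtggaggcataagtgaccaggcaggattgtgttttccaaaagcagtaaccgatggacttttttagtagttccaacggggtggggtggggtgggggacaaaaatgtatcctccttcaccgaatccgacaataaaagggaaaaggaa
No match to those 15 motifs was found in the Hand2, Hoxd9, Vps13d and Pax6 stretches. The searched motifs that are not marked include GGCGCC, a GC-rich SMAD element, which the Hand2 stretch contains. The GC content was 40.7% before the Vps13d start.

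The members were centred on the start they were assigned to. The median distance from the region's centre to the nearest start was 127 bp, 10782 members (85%) were centred within 500 bp, and 11279 (88.9%) contained the start. The centre lay downstream of the start in 7767 members (61.2%), with a median offset of 38 bp. The median width was 1604 bp (quartiles 1255 to 2027 bp) for the E9.5 regions and 1394 bp for the E10.5 partners. The 1405 members whose nearest start lay outside the region were narrower, with a median of 989 bp, and had a median E9.5 score of 224.3, against 1118.66 for those that contained it. Of the genes, 9837 had 1 member, 1080 had 2 and 206 had 3 or more. Pde4d, which encodes a cAMP phosphodiesterase, had the highest number with 9, followed by Rgs3 with 7 and Frmd4a with 6.

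The E9.5 score of the members had a median of 1004.14 (95% interval of the median 986.4 to 1025.55, quartiles 508.2 to 1662.97) and ranged from 63.17 to 3233.06. The partner score at E10.5 had a median of 678 (661.6 to 693.3). Both intervals treat regions as independent and cover no variation between embryos. The wide shared promoter regions had a median E9.5 score of 2475.02 and the 2118 promoter regions found only at E9.5 one of 152.8. Scores pile up at a numerical limit near 3100, which 448 members reached at E9.5 and 252 through their partner, so the order beyond it carries little information. Of the members just under the width limit, all 2999 bp wide, those at C1ql2, Efnb3 and Cdc25a scored 556.5, 1073.81 and 2337.82 at E9.5. Just beyond it, the regions at 4933406P04Rik and Wipi1 (both 3001 bp) each scored 3100. Across the members, Spearman's rho was 0.868 between the 2 scores and 0.724 between score and width at E9.5. These are descriptions over regions that share libraries and depth.

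The highest E9.5 score, 3233.06, was held by members at Dpy19l1, Lpcat4, Gstcd, Sap30 and 1200016B10Rik. Sap30 encodes a subunit of the Sin3 histone deacetylase complex, and Lpcat4 an enzyme that remodels phospholipids. They were followed by members at Dusp10, a MAP kinase phosphatase, Hipk3, a protein kinase, 4933421E11Rik, Mthfd1l, an enzyme of mitochondrial folate metabolism, and Rsbn1. Widths in this group of 10 ran from 1664 to 2908 bp. Their partners scored between 2240.67 for Dpy19l1 and 3100 for Gstcd, Dusp10 and 4933421E11Rik, and at E10.5 the 10 lay at percentile 92.97 or higher.

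The genes were grouped into 43 classes by name or by list. The highest class medians were those of cholesterol synthesis and chaperones. The 24 members of the cholesterol synthesis class, whose genes make and regulate sterols, had a median E9.5 score of 1876.68 at percentile 80.8, and 20 of its 23 genes had a member. In this class the member of Insig1, which holds the sterol sensor SCAP in the endoplasmic reticulum, scored 3100 (E9.5) and 3164.14 (E10.5). The member of Idi1, an isoprenoid isomerase, scored 2581.82 and 3006.81, whereas the lower member of Pmvk, phosphomevalonate kinase, scored 125.2 and 100.3. Genes of this class are named in the study, so it was not chosen independently of it. No member of it shifted by 20 points, where 7.28% of all members rose and 7.48% fell by as much. The same held for other classes, among them DNA replication genes, aminoacyl-tRNA synthetases and RNA polymerase subunits. Chaperones, which fold proteins, had a median percentile of 80.7, with Hsp90b1 at the limit in both lists and Pfdn2, a prefoldin subunit, at 94.74 and 115.6.

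Next came the Notch pathway (median percentile 68.1, 15 members), regulators of chromatin (66.8, 79 members), translation initiation factors (65.2), ubiquitin-conjugating enzymes (64.7), aminoacyl-tRNA synthetases (64.3), mitosis genes (64.2) and DNA replication genes (64.1). Mcm7, a subunit of the replicative helicase, held the highest score among the replication genes with 3157.22, and Pole4, a small DNA polymerase epsilon subunit, the lowest with 181. Eed, a core subunit of the Polycomb complex PRC2, reached 3100. The 69 members of 65 ribosomal protein genes lay close to the middle, at percentile 50.9, from 123.4 for Rpl24 to 3111.12 for Rps19. The mitochondrial ribosome lay lower, at 36.9, although Mrps36 in the sequences above scored 3027.37, and its median was 62.6 with ranks within quintiles of width. The proteasome (52.9), spliceosome (48.2) and respiratory chain (51.5) lay near the middle as well.

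Classes of developmental regulators lay at the lower end. The median E9.5 percentile was 40.5 for developmental bHLH factors, 33.8 for Sox genes, 32.6 for forkhead genes, 26.7 for homeobox genes outside the Hox clusters, 23.1 for Hox genes and 14.3 for T-box genes. Among signalling pathways other than Notch it was 61.5 for BMP and TGF-beta, 38.5 for Hedgehog, 32.7 for FGF and 32.7 for Wnt. Collagens (19.3), chemokines and interleukins (19.3) and muscle contractile genes (19.6) were among the lowest. The spread inside a class was wide. Among the forkhead genes the E9.5 score ran from 85.04 for Foxs1 to 3100 for Foxn2, and among T-box genes the members of Tbx18 alone ran from 104.4 to 2421.46. The quartile ranges of neighbouring classes overlapped throughout, so the order of neighbours carries no weight.

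Since score and width were related, the class medians were also taken with ranks within quintiles of width. Cholesterol synthesis (79.1), chaperones (70.8), mitosis genes (72.5) and translation initiation factors (67.5) stayed in the upper part. DNA replication genes went to 78.8, the spliceosome to 65.9, Mediator from 50.7 to 68.1, the respiratory chain to 65.0 and Zfp genes from 48.2 to 62.6. In contrast, chromatin regulators went from 66.8 to 48.7, Notch genes to 53.8, and BMP and TGF-beta genes from 61.5 to 31.4, close to the FGF (28.8), Hedgehog (24.4) and Wnt (24.1) pathways. Developmental factors stayed low, with 28.7 for bHLH factors, 19.2 for T-box genes, 15.8 for forkhead genes, 15.7 for Sox and other homeobox genes and 10.9 for Hox genes. Muscle contractile genes went from 19.6 to 38.3. The place of these classes in the ranking thus moved with the treatment of width.

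**Figure D1:**
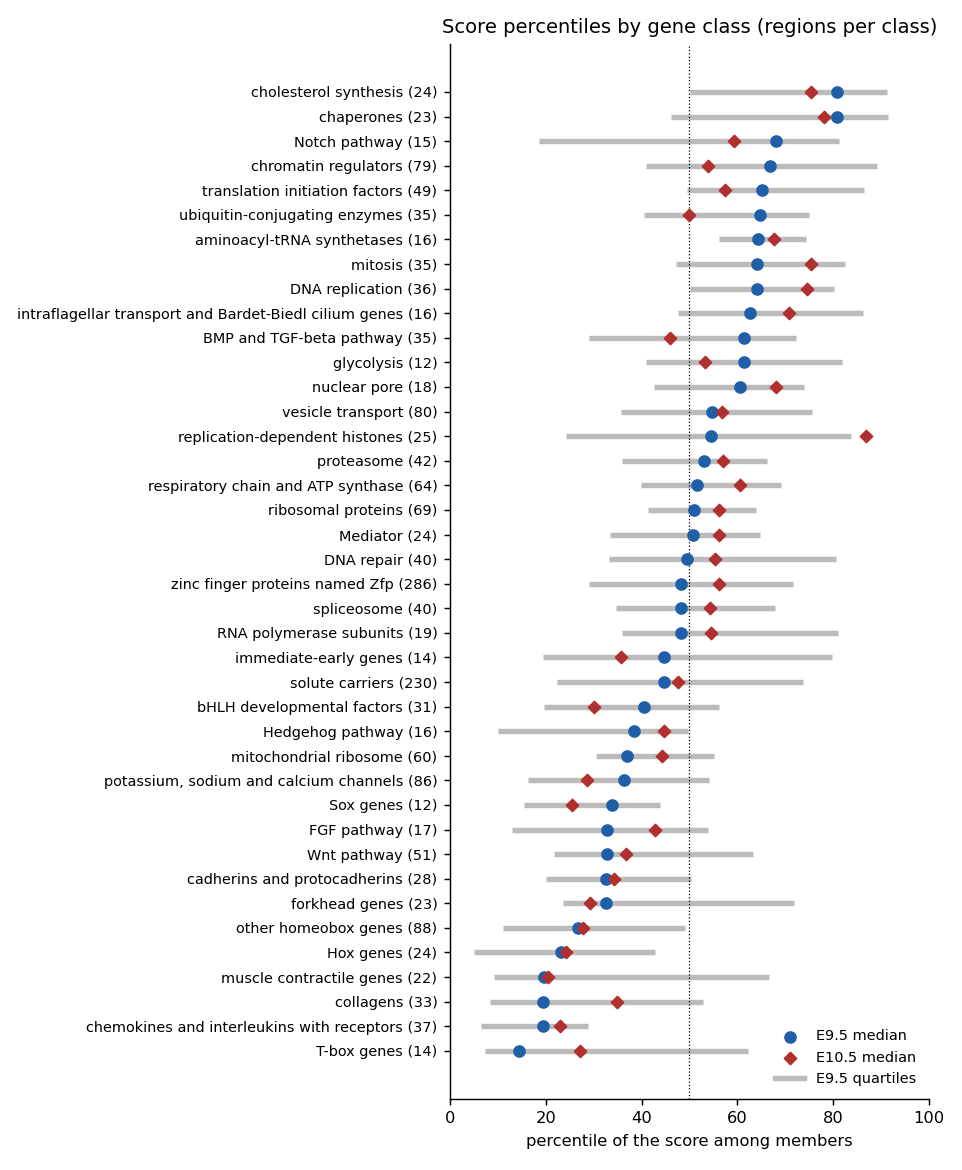
Percentile of the score among members for the gene classes with at least 12 member regions, with the number of regions in brackets. Circles give the E9.5 median, grey bars the E9.5 quartiles and diamonds the median of the E10.5 partners; cholesterol synthesis stands at 80.8 and 75.3, and T-box genes at 14.3 and 27.1.

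Membership itself also differed between the classes, beside 51.9% of all autosomal protein-coding genes with a member. More than 80% of the genes of cholesterol synthesis, translation initiation factors, ubiquitin-conjugating enzymes, vesicle transport, Mediator, the nuclear pore, the proteasome, ribosomal proteins and DNA replication had a member. Of the others, 13 of 31 immediate-early genes, which respond within minutes to stimulation, had a member, and another 15 had only a wide shared promoter region. For bHLH factors the counts were 20 and 12 of 39, for BMP and TGF-beta genes 27 and 10 of 38, and for Hox genes 20 and 7 of 40. The shares with a member were thus 51.3% and 50% for bHLH and Hox genes, close to that of all genes, and 71.1% for BMP and TGF-beta genes. Other classes also had genes with only a wide shared promoter region. They were 6 of 18 Sox genes, 8 of 25 FGF genes, 9 of 40 forkhead genes and 5 of 23 Notch genes. For homeobox genes outside the Hox clusters they were 18 of 97, and for Wnt genes 11 of 60. In every class with such genes, the median rank of narrow regions leaves out those whose open interval was 3000 bp or wider. Olfactory receptors had a member at 2 of 1081 genes (Olfr631 and Olfr94) and keratins at 1 of 50 (Krt8).

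The markers of the limb were largely open. Of the 9 limb mesenchyme genes, all 9 had a promoter region in both lists and 6 a member, namely Hand2, Lhx2, Lhx9, Msx1, Msx2 and Prrx2, while Prrx1 and Fgf10 lay in wide regions. The weakest was Tbx5, the forelimb identity gene, with its only promoter regions at 89.91 and 74.17, which were not members. Of the 7 genes of the apical ridge and ectoderm, 6 had an open promoter in the E9.5 list and 4 in the E10.5 list. All 5 genes of somite and muscle precursors, 3 of 3 of the flank and both neural tube genes that could be looked up, Pax6 and Sox2, also had a promoter region in both lists. The third neural tube gene, Sox1, was not matched in the annotation. One of 4 endothelial genes, Kdr, had one in both lists, and 2 of 3 blood genes, Hbb-bh1 and Hba-x, had one at E9.5 only.

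The next question was which promoters differed most in rank between the lists. Of the 12684 members, 10811 (85.2%) shifted by less than 20 points, 924 (7.28%) rose by 20 points or more and 949 (7.48%) fell by as much. The quartiles of the shift were -8.29 and 7.84 points. When ranks were taken in the whole autosomal lists, where the median member stood at percentile 79.95 (E9.5) and 78.5 (E10.5), 405 members rose and 1440 fell. The balance of rises and falls thus depends on what the ranks are taken among.

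The 10 largest falls were at Hoxa4, Hes5, Pax6, Metrn, Cacng4, Accn1, Rnf220, Zfp710, Cuedc1 and Ccdc64. The member of Hoxa4, a Hox gene expressed at neck and anterior trunk levels, scored 1808.31 at E9.5 and its partner 139.6 at E10.5, a fall from percentile 79.1 to 7.79. Hes5, a Notch target of neural progenitors, went from 1356.26 to 113.3, and 1 of 4 Pax6 members, at an internal start, from 1219.57 to 79.58. Metrn, which encodes the neurotrophic factor meteorin, went from 1949.14 to 308. Cacng4, a calcium channel subunit, went from 1232.89 to 117.4, and Accn1, an acid-sensing ion channel, from 1367.76 to 157.4. The 10 shifts lay between -71.3 and -52.3 points, and each of these members was the highest-scoring E9.5 region of its partner. Their regions were also wider at E9.5, from 1654 to 2991 bp, than at E10.5, from 656 to 1765 bp. With ranks in the whole autosomal list the 10 shifts lay between -81.4 and -32.4 points, with that of Metrn at -34.1 and that of Zfp710 at -32.4. Among the marker genes, the best promoter score went from 2647.85 to 1791.64 for Pax6 and from 1746.99 to 541.9 for Sox2, both of the neural tube. At E9.5 both scores came from wide shared promoter regions, which are not members. The median over wide shared promoter regions went from 2475.02 to 1428.34, and that over members from 1004.14 to 678. Markers of other tissues went in both directions. In limb mesenchyme Msx2 went from 849.8 to 344.4 and Hand2 from 894.8 to 1364.09. In somites Pax3 went from 702.5 to 222.8 and Meox2 from 1239.23 to 1382.03. In the flank Foxf1 went from 558.9 to 126.2 and Osr1 from 222.2 to 230.2. The part of the retained trunk in the falls was not tested.

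The 10 largest rises had another form. They were at Sema3a, Khsrp, Sept11, Txndc11, 2900060B14Rik, Odz3, Snw1, Tspyl1, Creb3l2 and Pag1, with shifts of 81.7 to 93.5 points, or 42.2 (Creb3l2) to 92.9 with ranks in the whole autosomal list. In all 10, the E10.5 partner also overlapped a second E9.5 region with a higher score. At Khsrp, for example, a region of 929 bp that scored 163.9, centred 1666 bp downstream of the start, was joined at E10.5 into 1 region of 2584 bp that scored 3100, while the neighbouring E9.5 region of 2893 bp also scored 3100. At Sema3a, a secreted axon guidance factor, the E9.5 regions scored 123.1 and 630.5 and the single E10.5 region 2622.9. These rises therefore compare a satellite, meaning a region beside a higher-scoring one, at E9.5 with an E10.5 region that overlaps both. The higher-scoring neighbour scored above the partner at Txndc11 and Odz3, the same at Khsrp and below it at the others, for example 1357.05 against 1908.21 at Snw1. Altogether 71 members were not the highest-scoring E9.5 region of their partner, and 51 of the 924 rises and 0 of the 949 falls came from them.

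Among the 12613 members that were the highest-scoring region of their partner, a restriction chosen after the values were seen, the largest rises were at Vps13d, Gm14226, Cacnb2, Dennd1b, Jag1, Abca4, Vcam1, Arhgap28, Kif5c and A430107O13Rik. At Vps13d, a lipid transfer protein, the score went from 188.5 to 1893.45 at an internal start. Jag1, a Notch ligand, went from 283.8 to 1867.73 at a region centred 2005 bp upstream of the start. Vcam1, a cell adhesion receptor, went from 128 to 1265.43 at a region centred 2350 bp downstream of the start. Cacnb2, a calcium channel subunit, went from 242.2 to 1974.52. The shifts of these 10 lay between 68.1 and 81.3 points, and their regions had a GC content of 38.8 to 51.6%, below the median of 55.4% of all members.

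**Figure D2:**
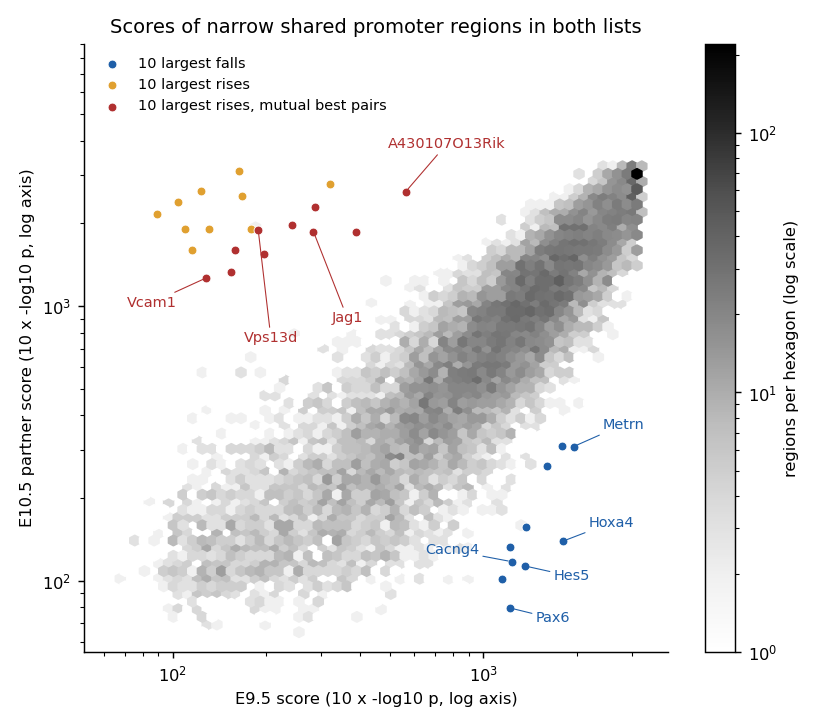
E9.5 score of each member (horizontal, log axis) against the score of its best-scoring E10.5 partner (vertical, log axis), with darker hexagons holding more regions and points marking the named rises and falls. Most regions lie along the diagonal (Spearman's rho 0.868), the 10 largest falls lie below it at E9.5 scores of 1149.97 or more, and the 10 largest rises of members with a shared partner lie at the upper left.

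The rank shift followed the base composition of the region. Across the members, Spearman's rho between shift and GC content was -0.55, and between -0.56 and -0.55 when single autosomes were left out. In the quintile of members with the lowest GC content (33.9 to 51.0%) the median shift was 9.28 points, with 546 rises and 19 falls among 2537 members. In the quintile with the highest GC content (59.4 to 75.3%) it was -10.5 points, with 29 rises and 584 falls among 2537. The middle quintile lay at -0.03. Within quintiles of width the correlation with GC content was between -0.54 and -0.38, so it was present in narrow and wide members alike. GC content was related to the score itself at E9.5 (rho 0.22) but hardly at E10.5 (rho -0.06). For the GC content of the bases close to the centre only, the rho with the shift was -0.40. Base composition can enter both the biology of a promoter and the preparation of a library, and these cannot be told apart with 1 list per stage.

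**Figure D3:**
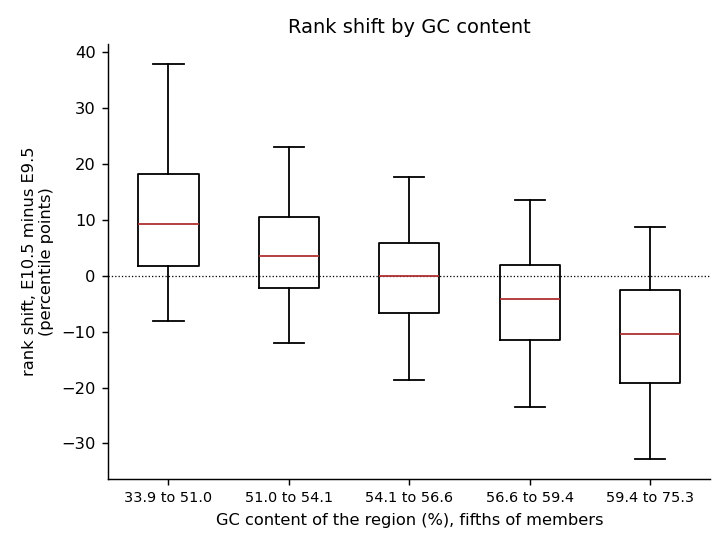
Rank shift of the members (vertical, percentile points) in quintiles of the GC content of the region (horizontal, percent). Boxes span the quartiles around the median, and whiskers run from the 5th to the 95th percentile; the median falls from 9.28 points in the lowest quintile to -10.5 points in the highest.

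The number of rises and falls in several classes changed when members were ranked within quintiles of GC content. Of the 286 members of zinc finger genes named Zfp, 51 rose (17.8%) and 24 fell (8.39%), where 7.28% of all members rose and 7.48% fell. With ranks within quintiles of GC content 12 of the 286 rose and 17 fell, where 5.24% of all members rose and 5.02% fell. Of the 79 members of chromatin regulators, 17 fell (21.5%) and 3 rose (3.8%). The falls included Ring1 and Cbx8 of Polycomb complex PRC1, the acetyltransferases Ep300 and Crebbp, and the demethylase Kdm2a. At Ring1 the score went from 1675.04 to 317.6 and at Ep300 from 2114.66 to 764.5. Within GC quintiles 6 of the 79 fell and 2 rose, beside 5.02% and 5.24% of all members. For mitosis genes the median shift of 5.65 points became 0.20, and for DNA replication genes 5.36 became 0.47.

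The replication-dependent histone genes, which lie in clusters and make the histones of S phase, had the largest gap between class medians, from percentile 54.5 to 86.8. Of their 25 members, 7 rose and none fell, where 7.28% of all members rose and 7.48% fell. The members had 22 distinct partners, and 3 of the 7 rises were satellites of a higher-scoring E9.5 region. The median shift was 9.8 points, and 1.26 points within GC quintiles. The members of the linker histone genes scored high in both lists, with Hist1h1d at 2073.27 and 3063.33 and Hist1h1c at 2698.97 and 2470.86. Histone genes are near-identical copies and the alignment kept reads with a single position, so their scores are uncertain. Of the 67 genes, 30 had neither a member nor a wide shared promoter region.

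Among the 88 members of homeobox genes outside the Hox clusters, 6 rose (6.82%) and 3 fell (3.41%), no larger shares than the 7.28% and 7.48% of all members. These members had 84 distinct partners, and only 3 of the 6 rises were at the highest-scoring E9.5 region of the partner. Within GC quintiles, where 5.24% of all members rose and 5.02% fell, 12 of the 88 rose and 1 fell. Single developmental genes had shifts in both directions. The members of Lhx9, a LIM-homeobox gene of limb mesenchyme, went from 419.2, 637.9 and 782.2 at E9.5 to partners of 2100.35, 1187.32 and 2100.35. The first and the third shared their partner. Hand2, which sets up the anterior-posterior axis of the bud, went from 894.8 to 1364.09, a shift of 33.1 points. Rspo2, a Wnt agonist of the limb, went from 837.1 to 1020 and Sfrp2, a secreted Wnt antagonist, from 702 to 964.4. Col9a1, a cartilage collagen, went from 1067.75 to 2669.1, and Col3a1 had 2 members at 110.7 and 226.5 with 1 partner at 1038.11. In the opposite direction, Chrd, a BMP antagonist, went from 866.2 to 114 and Foxp1 from 1418.11 to 396.3. Sox8 went from 1416.19 to 333.1 and Lfng, a modifier of Notch receptors, from 1366.2 to 397.3.

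The Hox members separated by their place in the clusters, a grouping made after the values were seen. Hox genes are numbered by paralogue group along each cluster, and genes with high numbers act at posterior levels of the trunk and in the distal limb. Of the 12 members of groups 9 to 13, 10 had a shift above 0 and 6 rose by 20 points or more, with a median of 19.2. Of the 8 members of groups 1 to 5, 7 had a shift below 0 and 4 fell by 20 points or more, with a median of -16.7. Of all 12684 members, 6285 had a shift above 0, 7.28% rose by 20 points or more and 7.48% fell by as much. Hoxd9 went from 851.4 to 1051.27, Hoxd10 from 596.2 to 735.2 and the higher Hoxa10 member from 260.1 to 602.2. Hoxb4 went from 1846.34 to 512.8 and Hoxb5 from 880.6 to 127.5. The medians were 23.6 and -17.1 within GC quintiles, and all 12 members of groups 9 to 13 were above 0 there. Over all members the median shift within GC quintiles was -0.16. The 4 members of groups 6 to 8 had shifts from -21 to 31 points. The 24 Hox members had 23 distinct partners, and 6 of the 7 rises were at the highest-scoring E9.5 region of the partner. Over all Hox members the median shift was 0.39 points, and -6.04 with ranks in the whole autosomal list, where it was -1.48 over all members.

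**Figure D4:**
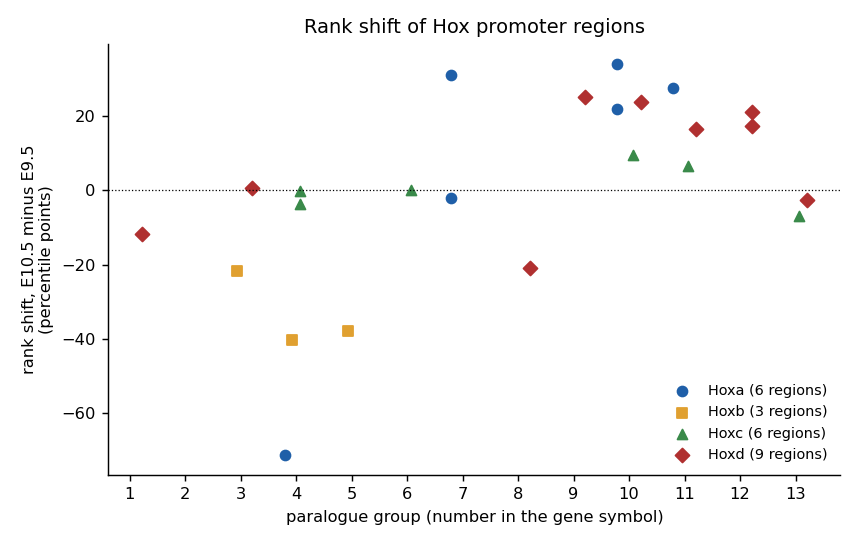
Rank shift of the 24 Hox members (vertical, percentile points) by paralogue group (horizontal), with the 4 clusters in separate colours and symbols. Members of groups 9 to 13 lie between -6.91 and 34.1 points, and those of groups 1 to 5 between -71.3 and 0.69.

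The members had sequence features that the selection did not use, and the wide shared promoter regions had them as well. In the window from 250 bases before to 50 after the start, the median GC content was 62% at the 12349 distinct starts nearest to members. The ratio of observed to expected CpG had a median of 0.77, against 0.49 at all 67114 autosomal protein-coding starts and 0.21 at the 25876 starts with no region of either list within 2500 bp. At the starts of wide shared promoter regions the median GC content was 66.3% and the median CpG ratio 0.82. There the ratio was 0.6 or more at 80.6% of starts. The ratio was 0.6 or more at 71.3% of the starts of members (95% Wilson interval 70.5 to 72.1%) and at 3.87% (3.64 to 4.11%) of the starts with no region. Among members it was 0.6 or more at 90.5% of starts in the highest quartile of the E9.5 score and at 39.5% in the lowest. At the starts of members that rose by 20 points the median GC content was 53.3%, and at those that fell it was 71%.

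The shares of starts with an exact match also differed with the score, upwards for some motifs and downwards for others. GGGGCGGGG, the binding motif of SP and KLF factors, was present on either strand at 22.3% of the starts of members (21.5 to 23%), at 13.1% of all starts and at 1.76% of the starts with no region. For wide shared promoter regions the share was 25.9% (23.3 to 28.6%). Within the members the share was 31% in the highest quartile of the score and 13.3% in the lowest. CCGGAAG, the ETS motif, stood at 16.1% of the starts of members and at 5.59% (4.36 to 7.15%) of those of wide shared promoter regions, and YY1's AAGATGGCG at 3.19% and 0.95%. AGCCAAT of NFY went from 6.34% in the lowest to 14.6% in the highest quartile of the score, and GCGCATGCG of NRF1 from 1.17% to 3.88%. TATAAA had the reverse order, with 19.2% at starts with no region, 9.72% in the lowest quartile and 3.22% in the highest. From the lowest to the highest quartile, TGACAG of MEIS and PKNOX also went down, from 19.2% to 13.6%. TGANTCA of AP-1 went from 5.59% to 2.97% and GGAATG of TEAD from 13.9% to 8.99%. For the CTCF, GLI and SREBP motifs and the SMAD palindrome, the intervals of both quartiles overlapped. These sets also differ in GC content, and the part of GC content in the motif shares was not tested. AGCCAAT stood at 5.48% of the starts of members that fell by 20 points and at 8.52% of those that rose, and the ETS motif at 12.2% and 13.6%. The SP motif stood at 40% and 7.96%, and GGCGCC at 35.5% and 11.4%. In a window of nearly equal length around the centre of each member, the share was 14.7% for the SP motif, 1.91% for NRF1 and 6.2% for NFY, against 22.3%, 3.13% and 9.72% around the start.

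**Figure D5:**
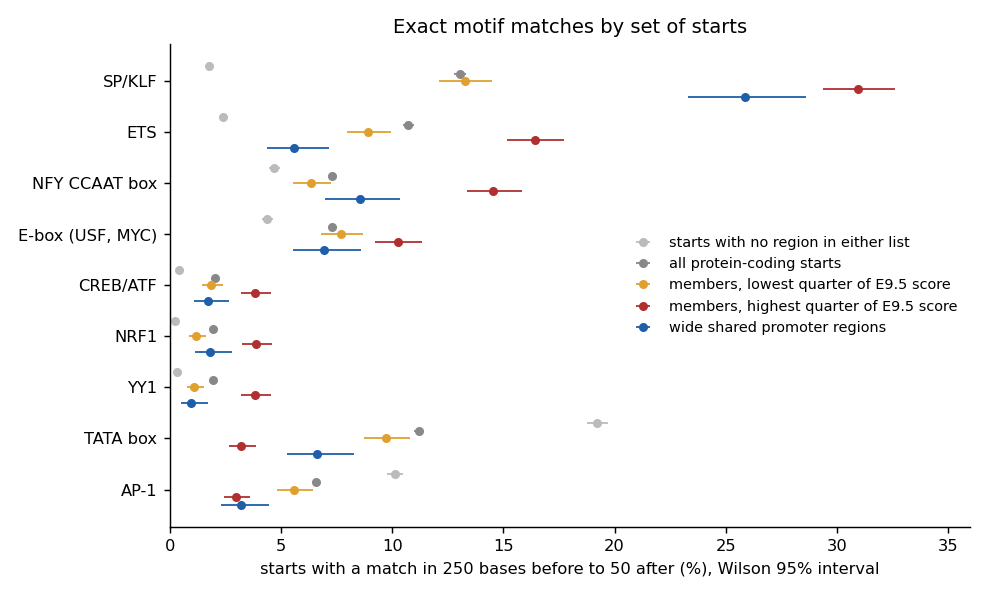
Share of starts with an exact match to each motif (horizontal, percent, bars are 95% Wilson intervals) in the 300 bases around the start, for 5 sets of starts in separate colours. The SP motif stands at 31% in the highest and 13.3% in the lowest quartile of the members' score, and the TATA box at 3.22% and 9.72%.

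Motif shares differed between the gene classes, whose small numbers of starts leave wide intervals. TTTGGCGC, the E2F motif, was found at 7 of 36 starts of DNA replication members (19.4%, 9.8 to 35%), and at 0.86% of all members' starts. The ETS motif was found at 9 of 16 starts of aminoacyl-tRNA synthetases, 16 of 40 of the spliceosome, 24 of 69 of ribosomal proteins and 20 of 60 of the mitochondrial ribosome. It was found at 0 of 23 starts of cholesterol synthesis, 0 of 22 of Hox genes and 0 of 29 of collagens. In the histone class, 13 of 24 starts held TATAAA (54.2%, 35.1 to 72.1%) and 9 held AGCCAAT, where 5.8% and 9.72% of all members' starts did. In the Hist1h1d stretch above, TATAAA stands shortly before the start. AGCCAAT was found at 6 of 23 starts of cholesterol synthesis and at 1 of 69 of ribosomal proteins, and TCACCCCAC, a form of the SREBP motif, at 0 of 23. A missing match says only that these letters are not in the window.

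Head-to-head gene pairs stood higher in the ranking. At 939 members (7.4%) another gene started on the opposite strand within 1000 bp upstream of the nearest start. Their scores had medians of 1546.06 (E9.5) and 1129.09 (E10.5), against 962.4 and 644.5 for the other 11745. Their median width was 1790 bp against 1584 bp, and their median GC content 55.7% against 55.3%. The median shift was -0.85 in these pairs and -0.05 elsewhere.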

How the data were processed

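ATAC-seq regions of E9.5 and E10.5 forelimb buds were analysed (2 replicates per stage, wild-type NMRI mice). Reads were mapped by the authors to mm9 (Bowtie 1.1.0), and reads with more than 1 position were dropped. They called regions per replicate with MACS 1.4, with no control library, and merged replicates by MSPC. The deposited score is 10 times the negative log10 of the best p-value among the overlapping replicate regions and is not normalised between lists. The other deposited columns used are the start and end of each region. Since each stage has 1 list, read depth and replicate spread are unknown and no test was made.

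Regions were annotated with GENCODE vM1 on NCBIM37. Each member was paired with its best-scoring overlapping E10.5 region, and both scores were ranked over all members (ties averaged). A shift of 20 percentile points marked a rise or fall. Named were the 10 highest scores, the 10 largest rises and falls (1 per partner), 3 regions on each side of the width limit and the ends of each class. Genes named beyond this rule were chosen after their values were seen. Members, gene classes, motifs and the rule were chosen with earlier results of these data known. Foxf1 was matched as Foxf1a, and Sox1 was not matched. Motifs were searched as exact letters on both strands, and overlapping matches of different motifs were counted for each. Intervals are 95% Wilson (shares) or order-statistic (medians) and cover counting error only. The overlap and ranking functions were tested on simulated lists. Python 3.11.15, numpy 2.4.6, pandas 2.3.3 and scipy 1.17.1 were used.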

Additional observations from a re-analysis of the deposited data

How the results depend on the processing

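The number of members stayed within 1.5 times 12684 under every alternative. Their median E9.5 score of 1004.14 moved to 1025.6 with a reciprocal overlap of at least 50%, 1098.62 and 896.2 with promoter distances of 1 and 5 kb, 787.2 with widths under 2000 bp and 1036.5 with both scores at least 100. The rank correlation of 0.868 became 0.886 with the reciprocal overlap, 0.853 with widths under 2000 bp, 0.863 with both scores at least 100, 0.853 without scores of 3100 or more and 0.877 in members that were the highest-scoring region of their partner, the last added after seeing the data. Counts of rises and falls moved by over 1.5 times only with ranks in the whole autosomal lists, to 405 rises and 1440 falls. Among the class median shifts of at least 5 points, 3 changed sign within quintiles of GC content, to -2.54 for aminoacyl-tRNA synthetases, -1.46 for the respiratory chain and -0.59 for Zfp genes. Under reciprocal overlap, 7 of the 10 largest falls and all 10 largest rises had no pair left, because their regions differ in width, and the other 3 falls still exceeded 20 points. Of 385 alternative values, 310 stayed within their interval or spread, 72 moved beyond it and 3, the class shifts just named, were counted as reversed. Smaller class shifts that changed sign were not counted as reversed. For Mediator, for example, the median shift went from 3.44 to -4.67 within quintiles of GC content. No paired analysis was possible because the replicates of a stage were merged before deposit. For the same reason no replicate could be left out, and depth sets the scores to an unknown degree.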
